A study of Danio rerio with 4 samples.

Results

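The cytosolic and mitochondrial chaperones examined here were the heat shock protein genes hspb1, hsp90ab1, hspa8, hspa9, hspd1 and hspe1 and the chaperonin subunit genes tcp1, cct2, cct4 and cct5. They were found by gene symbol in a zebrafish RNA-seq series. The 10 symbols were carried by 12 of the 31870 Ensembl gene identifiers, because hspa8 and cct2 each stood on a pair of identifiers. The series held 4 libraries, 1 for each of 4 groups. WT embryos carried the wild-type genotype, and Mybx1 embryos were labelled as a maternal mutant of ybx1, which codes for the RNA-binding Y-box protein 1. Both were sampled at 0 and at 6 hours post fertilisation (hpf), from total RNA depleted of ribosomal RNA. The sources used here name neither the mutant allele, nor the zygotic genotype, nor how many embryos went into a library. Levels are FPKM (fragments per kilobase of gene, scaled to library size), a level per length, so genes can be set against each other.

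Chaperones bind unfolded protein chains and help them to fold. HSP70 (hspa8 in the cytosol, hspa9 in mitochondria) binds and releases short stretches of a chain with the help of J-domain proteins and nucleotide exchange factors, and HSP90 (hsp90ab1) acts later on proteins that are close to their folded form. Small heat shock proteins such as hspb1 hold unfolded proteins without using ATP. HSP60 (hspd1) forms a barrel in the mitochondrial matrix that HSP10 (hspe1) closes as a lid. The cytosolic chaperonin TRiC is a double ring of related subunits (tcp1 and the cct genes) known for folding actin and tubulin. A fish egg is loaded with maternal RNA before the embryo starts its own transcription, so RNA at 0 hpf is maternal. Roles named below are those known from human or yeast proteins unless said otherwise.

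The recovered library totals were between 6042830 and 7570070 reads. The ybx1 level was 338 FPKM in WT at 0 hpf and 2287 FPKM in WT at 6 hpf, against 11.9 FPKM and 54.2 FPKM in the Mybx1 libraries, so the mutant libraries were the low ones at both times. The 8 listed egg transcripts were at or above 1 FPKM in every library, and their summed level was 4678 FPKM in WT and 4601 FPKM in Mybx1 at 0 hpf. At 6 hpf that sum was 129.5 FPKM in WT and 2102 FPKM in Mybx1. Of 8 listed gastrula transcripts, 8 reached 1 FPKM in WT at 6 hpf and 2 did in Mybx1 at 6 hpf, with summed levels of 1461 FPKM and 323 FPKM. Both 0 hpf libraries had 0 of 8, with sums of 0.65 and 1.05 FPKM. The part of this difference in developmental state in the chaperone differences at 6 hpf was not tested. Of 6 identifiers for blood, liver and muscle, 0 reached 1 FPKM in WT at 0 hpf, 2 in WT at 6 hpf, 1 in Mybx1 at 0 hpf and 2 in Mybx1 at 6 hpf. Their sum was 1.34 and 110.02 FPKM in WT and 2.69 and 6.22 FPKM in Mybx1 at 0 and 6 hpf. The globin gene hbae1.1 was at 0 in every library, and in WT at 6 hpf it was the only 1 of the 6 at 0. Of 7 identifiers for ovarian somatic cells, 1 reached 1 FPKM in every library, and their sum was 196 and 40.3 FPKM in WT at 0 and 6 hpf and 130.4 and 69.2 FPKM in Mybx1. The 2 testis identifiers summed to between 4.42 and 8.78 FPKM. In bulk embryos, fewer cells of a type and less RNA per cell cannot be told apart.

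With 1 library per group no difference has a replicate check, and each compares 2 libraries. Differences were taken on log2(FPKM + 1), over genes with a mean of at least 1 FPKM in the libraries compared. Only changes of at least 2-fold on that scale are said to have risen or fallen. Folds are ratios of FPKM with a 95% interval from the recovered reads, which covers counting error only.

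The 12 chaperone identifiers made up a larger share of the RNA in WT at 6 hpf than in the other libraries. The 12 identifiers held 0.464% of all FPKM in WT at 0 hpf and 1.185% in WT at 6 hpf. In Mybx1 they held 0.328% at 0 hpf and 0.344% at 6 hpf. Most of the sum was in hspb1, hsp90ab1 and the first hspa8 identifier (ENSDARG00000068992), which together gave 62.9% of it in WT at 0 hpf, 85.0% in WT at 6 hpf, 54.1% in Mybx1 at 0 hpf and 64.5% in Mybx1 at 6 hpf. The lists described below held 132 other identifiers, with actin and tubulin genes among them. Their share of all FPKM was 1.449% and 1.169% in WT and 1.135% and 0.927% in Mybx1 at 0 and 6 hpf.

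**Figure D1:**
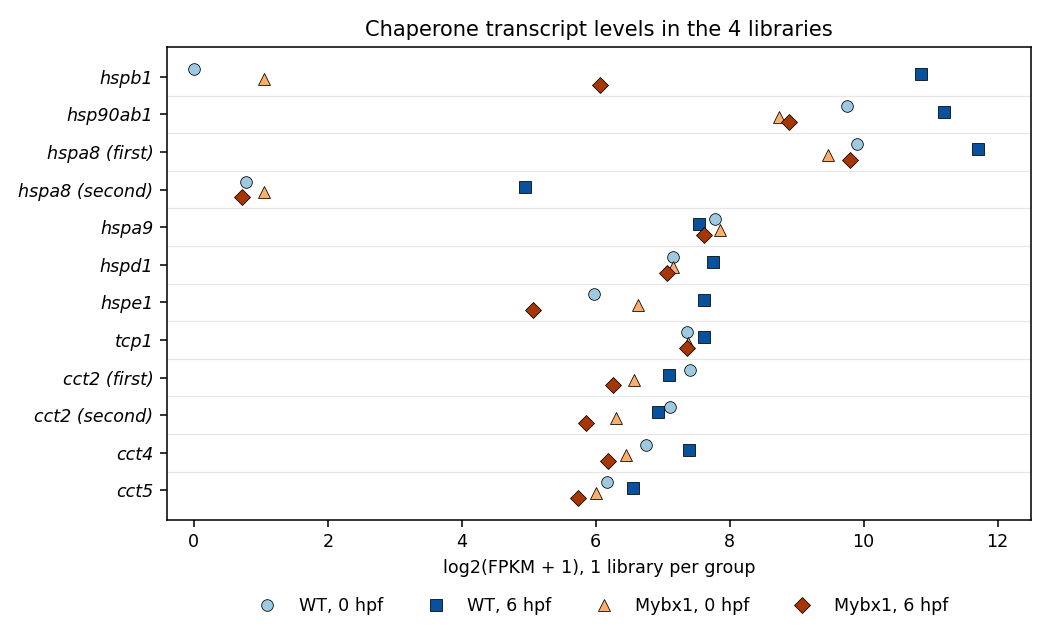
Level of each chaperone identifier in the 4 libraries (1 per group) on log2(FPKM + 1), with 1 symbol for each library. The highest hspa8 level is 3349.5 FPKM in WT at 6 hpf, and hspb1 ranges from 0 FPKM in WT at 0 hpf to 1854 FPKM in WT at 6 hpf.

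Among the 12 chaperone identifiers, cytosolic HSP70 and HSP90 genes led the order of levels in all 4 libraries. The first hspa8 identifier ranked 39 among all genes in WT at 0 hpf and 18 in WT at 6 hpf, and 80 and 66 in the Mybx1 libraries. The hsp90ab1 gene followed it in each library. The third place was held by hspa9 in WT at 0 hpf and in both Mybx1 libraries, and by hspb1 in WT at 6 hpf. In the middle of the order, neighbours were close. The intervals of tcp1 and the first cct2 identifier overlapped in WT at 0 hpf, as did those of tcp1, hspe1 and hspa9 in neighbouring pairs in WT at 6 hpf. In Mybx1 at 6 hpf the first cct2 identifier, cct4, hspb1, the second cct2 identifier and cct5 formed a run in which each interval overlapped the next.

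From 0 to 6 hpf in WT, 5 of the 12 chaperone identifiers counted rose and 0 fell. Among all 15031 genes counted, 65.3% passed 2-fold, with 24.2% risen and 41.1% fallen. The 5 were hspb1, hsp90ab1, both hspa8 identifiers and hspe1. Of these, hspb1 and the second hspa8 identifier were under 1 FPKM in WT at 0 hpf and were counted through WT at 6 hpf alone. In Mybx1 over the same interval, 1 of 11 counted rose (hspb1), against 7.67% of all genes, and 1 fell (hspe1), against 7.1%, so 14.8% of all genes passed 2-fold. Their median change was 0.62 log2 units in WT beside -0.57 over all genes, and -0.24 in Mybx1 beside -0.08.

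**Figure D2:**
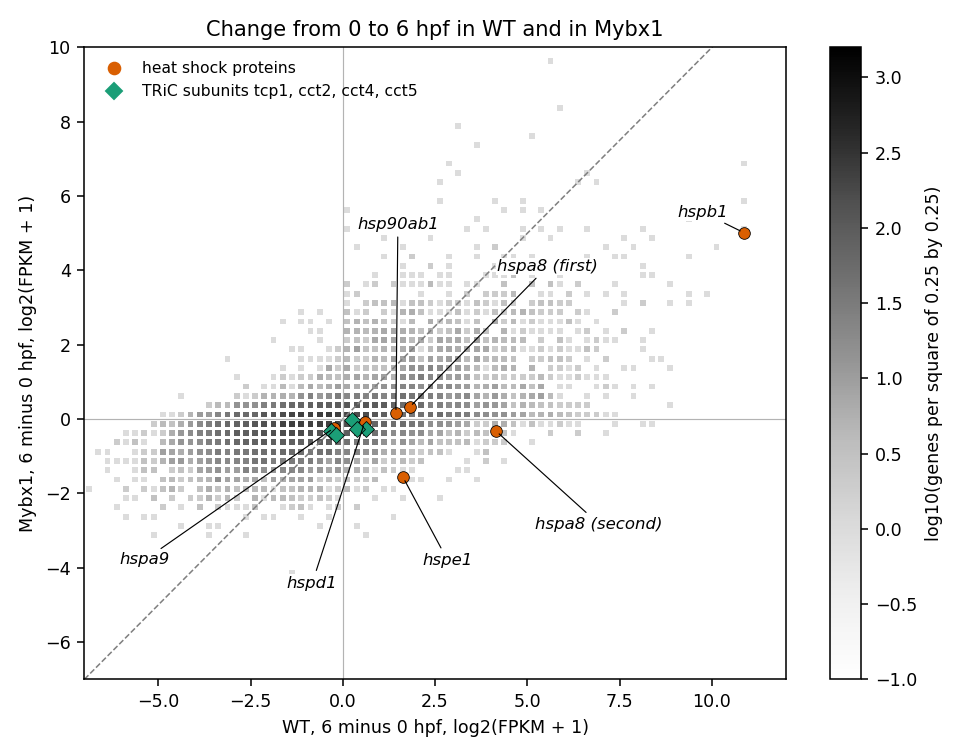
Change from 0 to 6 hpf on log2(FPKM + 1) in WT (horizontal) and in Mybx1 (vertical), with all genes counted as grey squares, heat shock proteins as circles, TRiC subunits as diamonds and equal changes on the dashed line. The hspb1 point lies at 10.86 and 5.02, and hspe1 is at 1.63 and -1.57.

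At 0 hpf, 0 of 10 chaperone identifiers counted were at least 2-fold higher in Mybx1 than in WT, against 8.85% of all genes, and 1 was lower (hsp90ab1), against 6.7%. The share of all genes past 2-fold in either direction was 15.6%. At 6 hpf, 0 of 12 were higher, against 38.2% of all genes, and 7 were lower, against 20.8%, where 59% of all genes passed 2-fold. The 7 were hspb1, hsp90ab1, both hspa8 identifiers, hspe1, cct4 and the second cct2 identifier. The second hspa8 identifier was counted there through WT alone. The median difference of the 12 at 6 hpf was -1.14 log2 units, beside 0.49 over all genes. The comparisons share libraries, so the WT library at 6 hpf enters both its stage change and the genotype difference at 6 hpf.

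These counts moved with the scaling of the libraries, which the deposited FPKM leave to each library's own total. Scaling by the median ratio over genes moved the median change of all genes in WT from -0.57 to 0.16 and the median genotype difference at 6 hpf from 0.49 to -0.24. On that scale 5403 genes rose and 4205 fell in WT, instead of 3637 and 6183, and at 6 hpf 3946 were higher and 5398 lower in Mybx1, instead of 6035 and 3284. The chaperones counted as risen in WT were then 8 and those lower in Mybx1 at 6 hpf were 11, all but hspa9. On TPM, where each library is rescaled to the same sum, 5 rose in WT and 5 were lower at 6 hpf, with cct4 at -0.98 and the second cct2 identifier at -0.85 log2 units just short of 2-fold. Among all genes on TPM, 3660 of the 16062 counted rose in WT, and 3141 of 16991 were lower in Mybx1 at 6 hpf.

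The small heat shock protein hspb1 (ENSDARG00000041065) had the steepest rise of the set. It stood at 0 FPKM in WT at 0 hpf, where 0 reads were recovered, and at 1854 FPKM in WT at 6 hpf. In Mybx1 it was at 1.07 FPKM at 0 hpf, from 6 reads, and at 66.2 FPKM at 6 hpf. It was thus close to absent at the start and present at the end in both genotypes, with the WT library far above the mutant one at 6 hpf. In WT it rose at least 3578-fold against the level that 3 reads would give, and in Mybx1 it rose 61.6-fold (28.0 to 169). At 6 hpf it was 28.0-fold lower in Mybx1 (25.0 to 31.5). Among all genes it ranked 19276 in WT at 0 hpf and 44 in WT at 6 hpf, and in Mybx1 it ranked 13813 and 1997. At 0 hpf its mean was under 1 FPKM, so it was not counted there.

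The other small heat shock proteins gave little signal. Of 12 identifiers in that list, 3 were counted in WT, and 2 of them rose, beside 24.2% of all genes. Both stood at 0 FPKM in WT at 0 hpf and were counted through WT at 6 hpf alone, so neither could have been called fallen. The first was hspb1. The second was CRYAB (ENSDARG00000101380), a crystallin that acts as a small heat shock protein, at 0 FPKM in WT at 0 hpf, 2.78 FPKM in WT at 6 hpf, 0.099 FPKM in Mybx1 at 0 hpf and 0 FPKM in Mybx1 at 6 hpf. The list summed to 1860.5 FPKM in WT at 6 hpf, nearly all of it hspb1.

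Among the genes with the pattern most like that of hspb1, by the distance between centred log2 levels over 4 libraries, were krt18a.1 at 0.77 and akap12b at 1.14, beside a median of 9.39 over 10702 genes. The krt18a.1 gene codes for a keratin of simple epithelia. An unnamed identifier followed at 1.29, and apoeb, an apolipoprotein gene, at 1.5.

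The cytosolic HSP90 gene hsp90ab1 (ENSDARG00000029150) rose in WT and stayed within 2-fold in Mybx1. Its level was 863 FPKM in WT at 0 hpf and 2342 FPKM in WT at 6 hpf. In Mybx1 it was 424 FPKM at 0 hpf and 472 FPKM at 6 hpf. Both WT libraries were above both Mybx1 libraries, and the mutant was already low at 0 hpf. The rise in WT was 2.71-fold (2.65 to 2.78), while the Mybx1 ratio was 1.11-fold (1.07 to 1.16). The mutant was 2.04-fold lower at 0 hpf (1.97 to 2.11) and 4.97-fold lower at 6 hpf (4.81 to 5.13). At 0 hpf this lies at the 2-fold threshold, with a difference of -1.03 log2 units, and it was called lower under all 3 scalings.

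HSP90AA1 (ENSDARG00000024746), HSP90 alpha, in humans the stress-inducible form, had a wider range. It was at 1.12 FPKM in WT at 0 hpf and 639 FPKM in WT at 6 hpf, a rise of 569-fold (355 to 978). In Mybx1 it was at 4.79 and 4.71 FPKM, so the WT library at 6 hpf stood alone. At 6 hpf the mutant was 136-fold lower (105 to 179), whereas at 0 hpf it was 4.27-fold higher (2.49 to 7.74), from low levels. The mitochondrial HSP90, trap1, had 29.5, 29.3, 34.6 and 41.2 FPKM in WT at 0 and 6 hpf and Mybx1 at 0 and 6 hpf. Of the 4 identifiers of the HSP90 family, 3 rose in WT, beside 24.2% of all genes, and 3 were lower in Mybx1 at 6 hpf, beside 20.8%. In Mybx1, 0 of 3 counted rose, beside 7.67% of all genes. The third that rose in WT was hsp90aa1.1, at 0.23 and 3.79 FPKM in WT and 0.95 and 0.76 FPKM in Mybx1 at 0 and 6 hpf, which was counted through WT at 6 hpf alone.

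Of 19 HSP90 co-chaperones counted in WT, 5 rose and 5 fell, beside 24.2% and 41.1% of all genes. With median-ratio scaling 6 rose and 3 fell, where 5403 of all 15548 genes counted rose and 4205 fell. In Mybx1, 0 of 17 rose and 0 fell, beside 7.67% and 7.1% of all genes. At 6 hpf 3 were higher and 6 lower in Mybx1, beside 38.2% and 20.8% of all genes. On TPM 7 were higher and 6 lower, where 7406 of all 16991 genes counted were higher and 3141 lower. AHSA1 (ENSDARG00000028664), an activator of the HSP90 ATPase whose symbol stands on more than 1 identifier, was at 0.75 FPKM in WT at 0 hpf and 25.4 FPKM in WT at 6 hpf, and at 0.44 and 1.47 FPKM in Mybx1. The rise in WT was 34.0-fold (16.2 to 85.6), in a gene counted there through WT at 6 hpf alone. The ttc4 gene, which codes for a TPR protein that binds both HSP90 and HSP70, was at 3.2, 21.1, 0.68 and 1.14 FPKM in the same order and was 18.5-fold lower in Mybx1 at 6 hpf (10.8 to 34.2). The opposite held for fkbp5, an immunophilin of steroid receptor complexes, at 11.2 FPKM in WT at 0 hpf and 0.45 FPKM in WT at 6 hpf against 15.5 and 9.09 FPKM in Mybx1. In the WT stage change fkbp5 was counted through WT at 0 hpf alone, so it could not have been called risen. In the genotype comparison at 6 hpf it was counted through Mybx1 alone, so it could not have been called lower. The cdc37-like gene cdc37l1 fell 6.20-fold in WT (5.26 to 7.35), from 133 to 21.4 FPKM, and was at 139.5 and 134 FPKM in Mybx1.

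The constitutive cytosolic HSP70 gene hspa8, at its first identifier (ENSDARG00000068992), was the most abundant of the 12 chaperone identifiers in every library. It had 954 FPKM in WT at 0 hpf and 3349.5 FPKM in WT at 6 hpf. In Mybx1 it had 706 FPKM at 0 hpf and 884 FPKM at 6 hpf. The WT library at 6 hpf stood above the other libraries, which lay close together. It rose 3.51-fold in WT (3.44 to 3.58), and the ratio in Mybx1 was 1.251-fold (1.21 to 1.29). The mutant was 3.79-fold lower at 6 hpf (3.70 to 3.88), and at 0 hpf its ratio of 1.35-fold below WT (1.31 to 1.39) stayed within 2-fold.

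The second hspa8 identifier (ENSDARG00000037403) was rare by comparison. It had 0.72 FPKM in WT at 0 hpf, 29.6 in WT at 6 hpf, 1.06 in Mybx1 at 0 hpf and 0.64 in Mybx1 at 6 hpf, from 7, 239, 10 and 5 reads. The rise in WT was 41.4-fold (19.8 to 104), and the mutant was 46.3-fold lower at 6 hpf (19.6 to 144). Since the identifiers share a symbol, reads could have been split between near-identical copies. The sources used here do not say how such reads were counted.

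In WT, 5 of the 9 cytosolic HSP70 and HSP110 identifiers counted rose and 0 fell, beside 24.2% and 41.1% of all genes. In Mybx1 over the same interval, 0 of 6 rose and 1 fell, beside 7.67% and 7.1%. At 6 hpf 6 of 9 were lower in Mybx1 and 0 higher, beside 20.8% and 38.2% of all genes. On TPM 5 were lower, where 3141 of all 16991 genes counted were. With median-ratio scaling 7 were lower, where 5398 of 16140 genes were. Those counted through WT at 6 hpf alone included the second hspa8 identifier in both comparisons and hsp70.3 at 6 hpf. They could not have been called fallen in WT or higher in Mybx1 there. The stress-inducible hsp70.3 was at 1.18 FPKM in WT at 0 hpf, 40.8 in WT at 6 hpf, 0.87 in Mybx1 at 0 hpf and 0.14 in Mybx1 at 6 hpf, the last from 2 reads. The WT rise was 34.7-fold (22.5 to 56.4), and the mutant was 290.5-fold lower at 6 hpf, with a wide interval of 80.1 to 2404. The HSP110 gene hsph1, which exchanges the nucleotide of HSP70, was at 1.34, 9.77, 1.27 and 1.1 FPKM in the same order, and was 8.91-fold lower in Mybx1 at 6 hpf (5.22 to 16.4). HSPA4 (ENSDARG00000004754), another HSP110 whose symbol is shared, was within 2-fold in WT at 96.7 and 133 FPKM and 2.12-fold lower in Mybx1 at 6 hpf (1.96 to 2.29), at 62.8 FPKM. That difference was -1.07 log2 units, close to the 2-fold threshold. Within a library, the first hspa8 identifier exceeded hsp90ab1 by 1.105-fold in WT at 0 hpf, 1.43-fold in WT at 6 hpf, 1.67-fold in Mybx1 at 0 hpf and 1.87-fold in Mybx1 at 6 hpf.

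The balance of rises and falls among the factors that work with HSP70 turned with the scaling, as it did among all genes. Of 6 nucleotide exchange factors counted in WT, 0 rose and 2 fell, beside 24.2% and 41.1% of all genes. With median-ratio scaling 2 rose and 1 fell, where 5403 of all 15548 genes counted rose and 4205 fell. The bag5 gene, whose protein releases nucleotide from HSP70, fell 14.9-fold in WT (11.4 to 19.8), from 51.8 to 3.48 FPKM, and had 45.5 and 48.9 FPKM in Mybx1. The bag1 gene, of the same family, fell 3.06-fold in WT (2.33 to 4.08) and was 3.56-fold higher in Mybx1 at 6 hpf (2.70 to 4.75). In contrast hspbp1, an HSP70-binding exchange factor, fell 2.32-fold in Mybx1 (1.83 to 2.96) and was at 37.4 FPKM in WT and 8.38 FPKM in Mybx1 at 6 hpf. Of 15 cytosolic J-domain proteins counted, 2 rose and 5 fell in WT, beside the same 24.2% and 41.1% of all genes. However, 4 rose and 0 fell with median-ratio scaling, where 5403 and 4205 of all genes did. On TPM 0 rose and 7 fell, where 3660 of all 16062 genes counted rose and 7371 fell. In Mybx1, 0 rose and 1 fell, beside 7.67% and 7.1% of all genes. The gene that fell was dnajc9, a J-domain protein that binds histones, with a fall of 3.34-fold (2.84 to 3.95). It also fell in WT, by 2.52-fold (2.15 to 2.96). The type I J-domain gene dnaja1 rose 2.12-fold in WT (1.93 to 2.33), to 171 FPKM, and was at 59.7 FPKM in Mybx1 at 6 hpf. The J-domain genes dnajc7 and DNAJC5 (ENSDARG00000004836, a shared symbol) were 3.22-fold (2.91 to 3.57) and 3.06-fold (2.67 to 3.51) higher in Mybx1 at 6 hpf. At 6 hpf 4 of the 15 were higher and 2 lower in Mybx1, beside 38.2% and 20.8% of all genes. With median-ratio scaling 0 were higher and 3 lower, where 3946 of all 16140 genes counted were higher and 5398 lower.

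Heat shock transcription factors bind the heat shock elements of chaperone genes. Of hsf1 and hsf2, the 2 counted, hsf1 rose in WT, beside 24.2% of all genes. It was at 18.4 and 42.5 FPKM in WT and 17.5 and 20.6 FPKM in Mybx1 at 0 and 6 hpf, with a WT rise of 2.31-fold (2.02 to 2.63). With their binding proteins, 4 were counted. On TPM 0 of the 4 passed 2-fold in WT, where 3660 of all 16062 genes counted rose and 7371 fell. With median-ratio scaling 2 rose, where 5403 of 15548 genes did. At 6 hpf 2 of the 4 were lower in Mybx1, beside 20.8% of all genes. That count was 1 on TPM and 3 with median-ratio scaling, where 3141 of 16991 and 5398 of 16140 genes were lower. The hsf2 gene was 3.41-fold lower in Mybx1 at 0 hpf (2.77 to 4.24), at 9.64 FPKM beside 32.9 FPKM in WT, and 2.86-fold lower at 6 hpf (2.18 to 3.8).

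**Figure D3:**
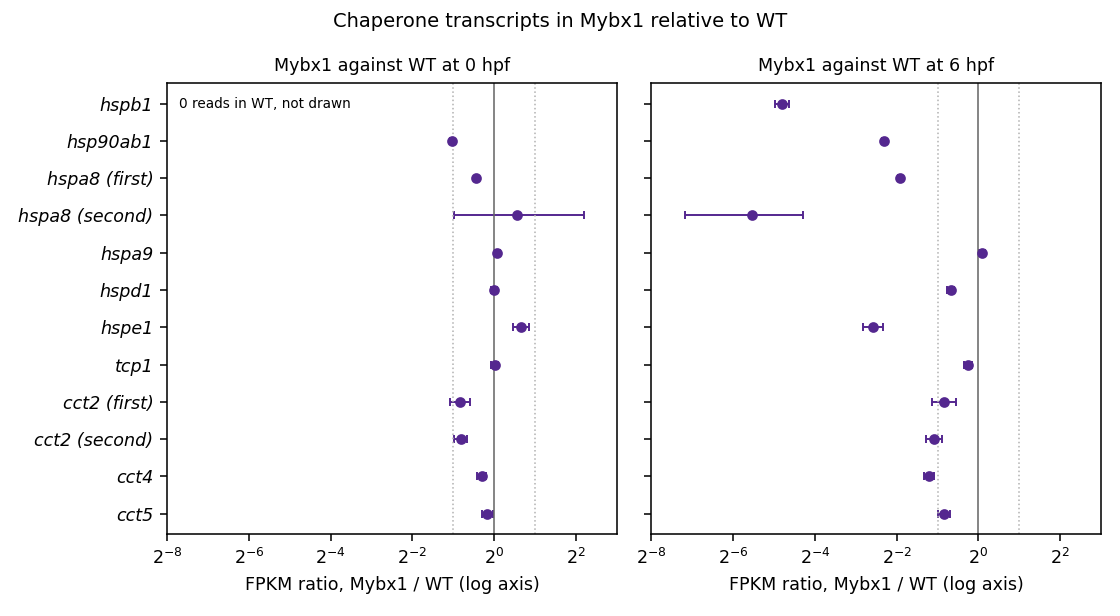
Fold of each chaperone identifier in Mybx1 over WT at 0 hpf and at 6 hpf, on a log scale with 95% counting intervals and dotted 2-fold limits. At 0 hpf hspb1 is not drawn, as WT had 0 reads, and hsp90ab1 sits at 2.04-fold lower, and at 6 hpf hspb1 is at 28.0-fold lower and hspa9 within 2-fold.

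The 5 TRiC identifiers stayed within 2-fold between stages in both genotypes on FPKM, where 65.3% of all genes passed 2-fold in WT and 14.8% in Mybx1. With median-ratio scaling cct4 and cct5 rose in WT, as did 5403 of all 15548 genes counted. At 6 hpf 2 of the 5 were at least 2-fold lower in Mybx1 than in WT, beside 20.8% of all genes. On TPM 0 were, where 3141 of all 16991 genes counted were. With median-ratio scaling all 5 were, where 5398 of 16140 genes were. The gene for subunit alpha, tcp1 (ENSDARG00000017891), had 164 FPKM in WT at 0 hpf, 195 in WT at 6 hpf, 165 in Mybx1 at 0 hpf and 163 in Mybx1 at 6 hpf. Its level in Mybx1 at 6 hpf was 1.19-fold below WT (1.12 to 1.27). The 4 libraries were thus close on FPKM. The sign of its WT stage change turned from 0.25 to -0.02 log2 units on TPM, and with median-ratio scaling the change was 0.98. On that last scale tcp1 in Mybx1 at 6 hpf was at -1.01 log2 units from WT, just past 2-fold lower. The gene for subunit delta, cct4 (ENSDARG00000013475), had 107 FPKM in WT at 0 hpf, 167 in WT at 6 hpf, 86.8 in Mybx1 at 0 hpf and 71.9 in Mybx1 at 6 hpf. It was 2.32-fold lower in Mybx1 at 6 hpf (2.14 to 2.52), the widest gap of the 5. The gene for subunit epsilon, cct5 (ENSDARG00000045399), had 70.7, 93.2, 62.9 and 52.3 FPKM in the same order and was 1.78-fold below WT at 6 hpf (1.61 to 1.97). Both were highest in WT at 6 hpf and lowest in Mybx1 at 6 hpf.

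The gene for subunit beta, cct2, was measured on a pair of identifiers, and both lay below WT at 0 hpf. The first (ENSDARG00000087206) had 169 FPKM in WT at 0 hpf, 135 in WT at 6 hpf, 94.5 in Mybx1 at 0 hpf and 75.5 in Mybx1 at 6 hpf. The second (ENSDARG00000104674) had 137, 121, 77.7 and 57.1 FPKM. Both WT libraries were above both Mybx1 libraries for each. At 0 hpf the mutant was 1.78-fold below WT (1.51 to 2.12) for the first and 1.77-fold (1.59 to 1.96) for the second, within 2-fold on the FPKM scale. At 6 hpf the first was 1.79-fold below (1.45 to 2.22) and the second 2.12-fold lower (1.86 to 2.42). The second stood at 0.813, 0.896, 0.822 and 0.757 of the first in the 4 libraries, so they moved alike. The sources used here do not say if they are separate copies or pieces of 1 gene. The signs of both in the WT stage change turned with median-ratio scaling.

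Over all 8 TRiC identifiers matched, 3 more genes included, each was below WT at 6 hpf under all 3 scalings. The count at least 2-fold lower was 2 of 8 on FPKM, near the 20.8% of all genes. It was 0 on TPM, where 3141 of all 16991 genes counted were lower. With median-ratio scaling it was 8, where 5398 of 16140 genes were lower. The median was -0.83 log2 units at 6 hpf, beside 0.49 over all genes, and -0.34 at 0 hpf, beside 0.07. Over all genes the 6 hpf median was 0.71 on TPM and -0.24 with median-ratio scaling. At 0 hpf 7 of 8 were below WT on FPKM and 8 on the other scalings. The share of all genes below WT was not counted. In WT the median stage change was 0.24 on FPKM, -0.03 on TPM and 0.98 with median-ratio scaling. Over all genes it was -0.57, -0.80 and 0.16 in the same order. The added subunit genes were cct3 at 337, 393, 248 and 251 FPKM, cct7 at 141, 234, 115 and 121 FPKM, and cct8 at 228, 268, 174 and 194 FPKM. The highest subunit, cct3, exceeded the lowest, cct5, by 4.77-fold, 4.21-fold, 3.93-fold and 4.8-fold, so the spread of the subunits was alike in the 4 libraries.

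TRiC works with prefoldin, which hands it unfolded chains, and with phosducin-like proteins. Of 9 such genes counted, 1 rose and 1 fell in WT, beside 24.2% and 41.1% of all genes. With median-ratio scaling 3 rose and 1 fell, where 5403 of all 15548 genes counted rose and 4205 fell. On TPM 0 rose and 2 fell, where 3660 of all 16062 genes counted rose and 7371 fell. In Mybx1, 0 rose and 1 fell, beside 7.67% and 7.1% of all genes. The gene that fell in Mybx1 was pfdn6, a prefoldin subunit, by 2.37-fold (1.86 to 3.05) to 14.0 FPKM. The prefoldin subunit pfdn4 was 2.73-fold lower in Mybx1 at 6 hpf (2.03 to 3.72). The phosducin-like gene pdcl fell 3.72-fold in WT (3.25 to 4.27) and was 3.37-fold higher in Mybx1 at 6 hpf (2.93 to 3.88), while pdcl3 rose 2.38-fold in WT (1.99 to 2.86).

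The mean TRiC pattern was most like TECR (a shared symbol) at 0.066, dcun1d5 at 0.079, strn3 at 0.092, usp39 at 0.097 and GATAD2A at 0.098, beside a median of 1.72 over 10698 genes. For hsp90ab1 the nearest were noc3l at 0.085, si:ch73-91k6.2 at 0.134, pde4dip at 0.162, UTP14C at 0.178 and CAPRIN1 (a shared symbol) at 0.211, beside a median of 2.84. For hspd1 the nearest named genes were wtap at 0.029, zgc:112982 at 0.063, znf1007 at 0.075 and efhd2 at 0.088, beside a median of 1.75. With 4 libraries these likenesses are descriptions.

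Of the mitochondrial chaperones of the set, hspa9 and hspd1 stayed within 2-fold in every comparison on FPKM, and hspe1 did not. The mitochondrial HSP70 gene hspa9 (ENSDARG00000003035) had 219.9 FPKM in WT at 0 hpf, 185 in WT at 6 hpf, 231 in Mybx1 at 0 hpf and 195 in Mybx1 at 6 hpf. The libraries lay close together. The WT stage fold was 0.998 of the Mybx1 stage fold (0.934 to 1.07). Its sign at 6 hpf turned with scaling, from 0.08 on FPKM to -0.68 log2 units with median-ratio scaling. The HSP60 gene hspd1 (ENSDARG00000056160) had 142 FPKM in WT at 0 hpf, 214 in WT at 6 hpf, 142 in Mybx1 at 0 hpf and 133 in Mybx1 at 6 hpf. It was 1.61-fold below WT at 6 hpf (1.52 to 1.70) and 1.51-fold above its 0 hpf level in WT (1.44 to 1.59), both within 2-fold on FPKM. With median-ratio scaling both passed 2-fold, at -1.44 and 1.33 log2 units.

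The HSP10 gene hspe1 (ENSDARG00000056167) moved in opposite directions in the 2 genotypes. It had 62.0 FPKM in WT at 0 hpf, 195 in WT at 6 hpf, 97.9 in Mybx1 at 0 hpf and 32.4 in Mybx1 at 6 hpf, from 386, 998, 588 and 161 reads. The WT library was highest at 6 hpf, and the Mybx1 library was lowest there. It rose 3.14-fold in WT (2.79 to 3.54) and fell 3.02-fold in Mybx1 (2.53 to 3.62). At 0 hpf the mutant was 1.58-fold above WT (1.39 to 1.8), within 2-fold, and at 6 hpf it was 6.00-fold lower (5.08 to 7.13).

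HSP10 and HSP60 work together, and in the RefSeq gene table of the GRCz12tu assembly hspe1 and hspd1 are next to each other on 1 chromosome. The hspe1 level was 0.437 of that of hspd1 in WT at 0 hpf (0.392 to 0.487) and 0.908 in WT at 6 hpf (0.845 to 0.975). In Mybx1 it was 0.691 at 0 hpf (0.631 to 0.756) and 0.243 at 6 hpf (0.206 to 0.285). The ratio was thus highest in WT at 6 hpf and lowest in Mybx1 at 6 hpf, with no overlap of the 4 intervals. Gene length, as the shortest that whole reads allow, moved with the stage change in Mybx1. The 1671 genes within 25% of the length of hspe1 and with a mean of at least 5 FPKM had a median of -0.26 log2 units and 15% were at least 2-fold lower. This stood against a median of 0.01 and 3.16% for genes of at least 4000 bases, while genes under 500 bases had a median of 0.43. Among those 1671 genes, 4.37% lay below hspe1. The part of length in the hspe1 value was not tested.

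**Figure D4:**
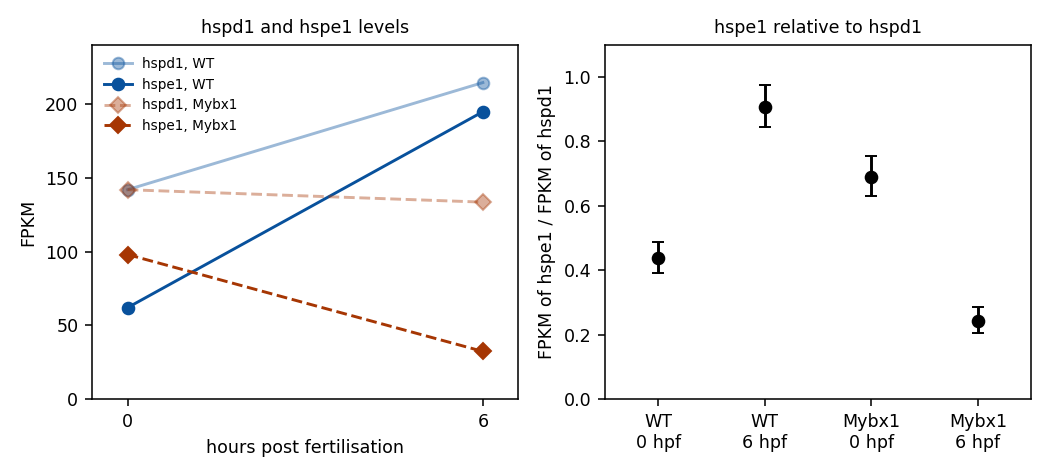
Levels of hspe1 and hspd1 as FPKM at 0 and 6 hpf in both genotypes (left), and the ratio of hspe1 to hspd1 in each library with 95% counting intervals (right). The hspe1 level rises from 62.0 to 195 FPKM in WT and falls from 97.9 to 32.4 FPKM in Mybx1, while hspd1 stays between 133 and 214 FPKM, and the ratio spans 0.243 to 0.908.

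In the wider list of mitochondrial chaperones and cofactors, as among all genes, falls outnumbered rises in WT. Of 22 identifiers counted, 2 rose and 12 fell, beside 24.2% and 41.1% of all genes. The median was -1.25 log2 units, beside -0.57 over all genes. With median-ratio scaling it was -0.65, beside 0.16 over all genes. On that scale 3 rose and 8 fell, where 5403 of all 15548 genes counted rose and 4205 fell. In Mybx1, 1 of 21 rose and 4 fell, beside 7.67% and 7.1% of all genes. The 4 were hspe1 and, at the threshold, dnajc19 at -1.06, lonp1 at -1.03 and pam16 at -1.02 log2 units. Counting error was large for dnajc19 and pam16. The interval of the WT stage fold over the Mybx1 one was 0.092 to 2.74 for dnajc19 and 0.186 to 1.37 for pam16. For lonp1 it was 1.40 to 1.87. With median-ratio scaling 1 fell, where 866 of all 14292 genes counted did. At 6 hpf 13 of 22 were higher and 2 lower in Mybx1, beside 38.2% and 20.8% of all genes. The median was 1.14, beside 0.49 over all genes. With median-ratio scaling 6 were higher and 5 lower, with a median of 0.54 beside -0.24 over all genes. On that scale 3946 of all 16140 genes counted were higher and 5398 lower. DNAJA3 (ENSDARG00000058494), a mitochondrial J-domain protein gene, was at 152 FPKM in WT at 0 hpf, 13.0 in WT at 6 hpf, 176 in Mybx1 at 0 hpf and 91.7 in Mybx1 at 6 hpf. It fell 11.7-fold in WT (9.78 to 14.1), and its relative dnaja3b fell 15.0-fold (8.44 to 29.6). The dnaja3b gene was counted there through WT at 0 hpf alone, so it could not have been called risen. At 6 hpf it stood at 0.90 FPKM in WT and 8.29 FPKM in Mybx1. It was counted at 6 hpf through Mybx1 alone and could not have been called lower. The protease genes clpp and afg3l2, which degrade misfolded mitochondrial proteins, fell 6.96-fold (5.51 to 8.88) and 13.1-fold (8.86 to 20.1) in WT and stayed within 2-fold in Mybx1. The nucleotide exchange factor genes of mitochondrial HSP70, grpel1 and grpel2, stood at 76.9 and 16.4 FPKM in WT at 0 hpf, 26.9 and 53.3 in WT at 6 hpf, 91.6 and 27.3 in Mybx1 at 0 hpf and 91.1 and 16.4 in Mybx1 at 6 hpf. This list held 32 identifiers, 11 of them under the symbol HTRA2.

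**Figure D5:**
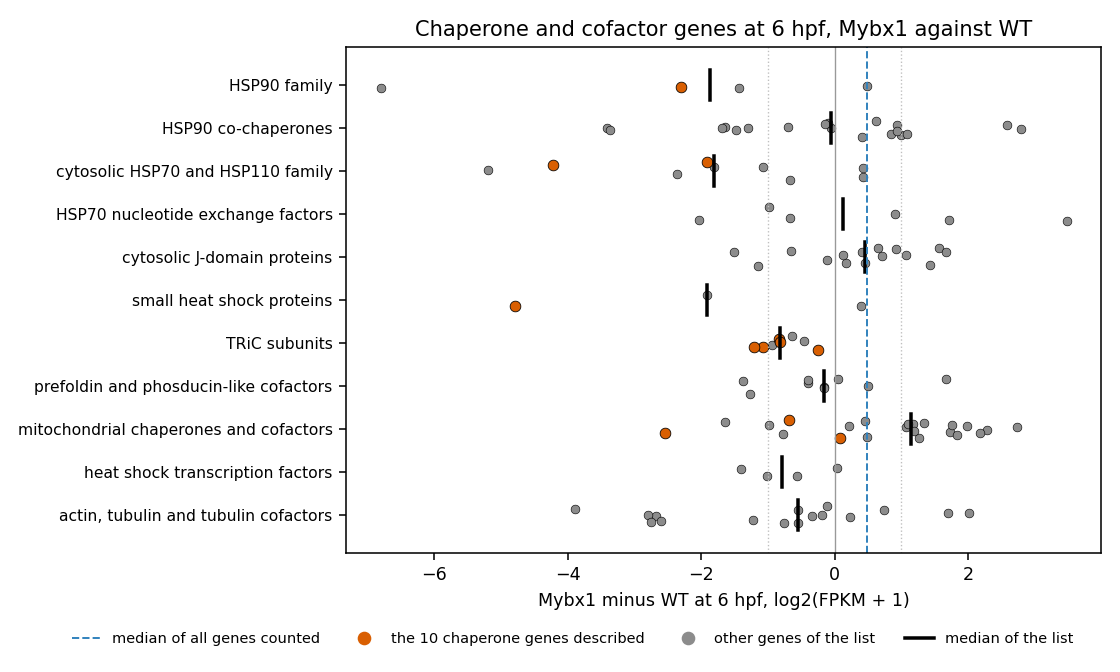
Difference between Mybx1 and WT at 6 hpf on log2(FPKM + 1) for each identifier of the chaperone lists, 1 row per list, counted, with list medians as black bars, the chaperones described here in orange and the median of all genes as a dashed line. The mitochondrial list has a median of 1.14 and the TRiC list one of -0.83.

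The stage changes of the genotypes were compared as the Mybx1 change minus the WT change. Of 12 chaperone identifiers counted, 5 were at least 2-fold lower and 0 higher, beside 18.6% and 37% of all 15376 genes counted (55.7% in either direction), with a median of -0.79 beside 0.52 over all genes. The 5 were hspb1, hsp90ab1, both hspa8 identifiers and hspe1. Of these, the second hspa8 identifier was counted through the later WT library alone, so it could not have been called higher. The WT stage fold exceeded the Mybx1 one 2.44 times for hsp90ab1 (2.32 to 2.56), 2.81 times for the first hspa8 identifier (2.71 to 2.91) and 9.48 times for hspe1 (7.68 to 11.7). For cct4 it was 1.89 times (1.69 to 2.11), for hspd1 1.61 times (1.49 to 1.73) and for tcp1 1.2 times (1.11 to 1.31), all within 2-fold on the FPKM scale.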

How the data were processed

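RNA-seq of 4 libraries was used. The authors deposited 1 table of FPKM values, which held 0 columns of other samples. Per the submitters' processing notes, the tools were HTSeq 0.6.1, TopHat2 2.0.12 and Bowtie2 2.2.3 and the build was GRCz10, with no role stated. The sources used here do not give the strand, the annotation or the handling of multiply mapped reads, so overlapping antisense genes cannot be told apart. Symbols came from a gene name table and matched 26099 (81.9%) of the identifiers, so some are human-style names, and a pair of copies can share 1.

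Library totals were recovered from whole-read steps in low FPKM values, to within 0.00054 of a whole number. At these totals, the length came out whole for 96.8% of 4906 low genes. At doubled totals it did so for 48.1%. Totals were 7570070 (WT, 0 hpf), 6240685 (WT, 6 hpf), 7303656 (Mybx1, 0 hpf) and 6042830 (Mybx1, 6 hpf). The smallest whole reads per gene were used. They are lower limits, so intervals are if anything too wide.

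Differences were taken on log2(FPKM + 1), which understates changes of low genes, at a mean of at least 1 FPKM and a threshold of 2-fold. Folds are FPKM ratios with exact conditional binomial (Clopper-Pearson) 95% intervals, and ratios of stage folds have Wald intervals. Against 0 reads, a fold is a bound set at 3 reads in that library. Each group has 1 library, so there is no test, replicate error or p-value. The distance in the likeness of patterns is Euclidean, over log2(FPKM + 1) centred on each gene's mean, for genes with a mean of at least 5 FPKM, and the 5 nearest were taken, of which 1 for hspb1 is not reported here. Named genes were the members and, of each of 11 lists (136 symbols), up to 4 with the largest absolute difference in any comparison, among those past 2-fold with a mean of at least 5 FPKM. Other list genes named (trap1, hsp90aa1.1, dnajc19, lonp1, pam16, grpel1, grpel2, CRYAB, cct3, cct7 and cct8) were chosen after their values were seen. The members and lists were chosen with earlier results of these data known. The recovery was tested on simulated data. Alternatives were pseudocounts of 0.1 and 5, no filter, a mean of at least 5 FPKM, TPM and median-ratio scaling. Python 3.11.15, numpy 2.4.6, pandas 2.3.3 and SciPy 1.17.1 were used.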

Additional observations from a re-analysis of the deposited data

Results flagged for a closer look

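One chaperone moved in opposite directions in the genotypes. The hspe1 gene rose from 62.0 to 195 FPKM in WT and fell from 97.9 to 32.4 FPKM in Mybx1. The Mybx1 stage change minus the WT stage change was -3.2 log2 units. It rests on 1 library per group, so the difference was not tested.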

How the results depend on the processing

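Each count past 2-fold was recomputed under 6 alternatives, and the order of levels under 2. Of the 56 values that answer a comparison, 48 stayed and 8 moved by over 1.5 times. With no filter, 2 chaperones passed 2-fold at 0 hpf instead of 1, hspb1 being the addition. With median-ratio scaling, 8 chaperones rose in WT instead of 5 (hspd1, cct4 and cct5 added), 11 were lower at 6 hpf instead of 7, and 8 differed in stage change instead of 5. Over all lists together, the Mybx1 stage count of 13 became 6 with a pseudocount of 5 and 8 with median-ratio scaling, and the 0 hpf count of 9 became 4 with a pseudocount of 5 and 5 with a mean of at least 5 FPKM. Of the 342 single-gene values, 330 stayed on their side of the threshold, 2 no longer passed it and 10 newly passed it, and 0 values past 2-fold changed sign. The filter settings (no filter and a mean of at least 5 FPKM) leave the value of a gene as it is. Their values among the 330 could therefore not move and are no check. With scaling, 8 values within 2-fold changed sign in the comparisons of 2 libraries (hspa9 in 3 comparisons, tcp1 in 3, and both cct2 identifiers in the WT stage change). The difference of the stage changes also changed sign for hspa9, from 0.003 to -0.66 with median-ratio scaling. For the first cct2 identifier it went from -0.004 to 0.25 on TPM. Totals of calls hide the direction: over all lists, 25 higher and 28 lower in WT became 42 and 15 with median-ratio scaling, and 25 and 34 at 6 hpf became 12 and 55. Among all genes, 3637 higher and 6183 lower in WT became 5403 and 4205, and 6035 and 3284 at 6 hpf became 3946 and 5398. The cause of these moves was not tested. The order of levels could not move, because TPM and median-ratio scaling each divide a library by a single number. Its 2 values among the 48 are thus no check.

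Depth limits the low genes, such as the second hspa8 identifier with 5 reads in Mybx1 at 6 hpf. No paired analysis was possible because each group has 1 library.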

Other observations

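Actin and tubulin, the main substrates of TRiC, and their folding cofactors were measured too. Of 16 identifiers counted in WT, 4 rose and 3 fell, beside 24.2% and 41.1% of all genes. With median-ratio scaling 8 rose and 2 fell, where 5403 of all 15548 genes counted rose and 4205 fell. In Mybx1, 1 of 14 rose and 2 fell, beside 7.67% and 7.1% of all genes. The gene that rose was tubb5, at 0.37 FPKM at 0 hpf and 1.85 FPKM at 6 hpf. It was counted there through Mybx1 at 6 hpf alone, so it could not have been called fallen. The tubulin genes tuba1a and tubb5 were at 0.086 and 0.94 FPKM in WT at 0 hpf and at 23.5 and 18.2 FPKM in WT at 6 hpf, against 0.65 and 1.85 FPKM in Mybx1 at 6 hpf. In the WT stage change both were counted through WT at 6 hpf alone, so neither could have been called fallen. In the genotype comparison at 6 hpf tuba1a was counted through WT alone, so it could not have been called higher in Mybx1. The tubulin gene tuba8l4 had 311 FPKM in WT at 0 hpf, 518 in WT at 6 hpf, 113 in Mybx1 at 0 hpf and 73.5 in Mybx1 at 6 hpf, and was 2.75-fold lower in Mybx1 at 0 hpf (2.55 to 2.98) and 7.04-fold lower at 6 hpf (6.39 to 7.77). The tubulin cofactor gene tbcc fell in both genotypes, by 9.8-fold in WT (7.46 to 13.1) and by 2.09-fold in the mutant (1.8 to 2.44). At 6 hpf 6 of 16 were lower and 2 higher in Mybx1, beside 20.8% and 38.2% of all genes. With median-ratio scaling 10 were lower and 2 higher, where 5398 and 3946 of the 16140 genes counted were lower and higher.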
